A study of Mus musculus with 22 samples.

Results

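ATAC-seq peaks in first introns were followed in hepatocyte nuclei from mice with diet-induced steatohepatitis. A peak belongs here where the authors' deposited annotation places it in intron 1 of a transcript. The rule took 12215 of 68827 peaks (17.7%), which is 44.1% of all peaks annotated to an intron. It uses position only and no measured value. The libraries came from 22 male HEP-INTACT mice, in which hepatocyte nuclei carry a tag and were pulled out of the liver by immunoprecipitation. Per diet there were 4 control, 4 mild and 3 advanced libraries, each from 1 mouse. FPC mice spent 20 weeks on a diet with added fructose, palmitate and cholesterol. CDAHFD mice spent 7 weeks on a high-fat diet without choline and with defined amino acids, and the controls of each diet ate a low fat diet for as long. The mice on either diet were split by liver histology: steatosis and inflammation were high in mild and advanced livers, and marked fibrosis was found in the advanced ones. All groups, controls included, carry the HEP-INTACT tag. The labels do not name what drives the tag, nor the ages of the mice. Diet and feeding time differ together, so they cannot be told apart when the diets are compared.

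A first intron starts right after the first exon and is often the longest intron of its gene. Its upstream end adjoins the promoter and can lie in the same CpG island, a stretch rich in CG pairs that often stays unmethylated. Its interior is a common place for enhancers, stretches that transcription factors bind to raise the transcription of a gene. In ATAC-seq a transposase cuts DNA that is not covered by nucleosomes, so the count of a peak measures how open that stretch is and not how much the gene is transcribed. In hepatocytes such enhancers are bound by HNF4A, FOXA and CEBP factors and serve genes of metabolism and secretion, while AP-1 and TEAD factors are known for binding enhancers in injured and growing liver.

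Peaks end 200 bp after their start on mm10, and libraries held 3785066 to 9328963 counts. Levels are in CPM, the counts of a peak per unit of library total after scaling between libraries. All first-intron peaks entered the tests, since none failed the filter on low counts. Of the 6 hepatocyte markers all had peaks, with a summed level of 828 to 986 CPM in advanced FPC livers, against 1052 to 1169 CPM in FPC controls, and 851 to 957 CPM in advanced CDAHFD livers, against 1043 to 1173 CPM in CDAHFD controls. The 5 cholangiocyte markers summed to 118 to 169 CPM in advanced FPC livers, against 49.3 to 64.0 CPM in FPC controls, and to 94.9 to 121 CPM in advanced CDAHFD livers, against 49.9 to 59.5 CPM in CDAHFD controls. The stellate markers with peaks, 2 of 5, summed to 43.2 to 58.6 CPM in advanced FPC livers, against 22.8 to 37.3 CPM in FPC controls, and 38.9 to 51.6 CPM in advanced CDAHFD livers, against 31.6 to 42.4 CPM in CDAHFD controls, so the groups stood apart on the FPC diet and overlapped on the CDAHFD. The lymphocyte markers with peaks, 2 of 5, summed to 53.1 to 55.8 CPM in advanced FPC livers, against 105 to 118 CPM in FPC controls, and 58.8 to 74.1 CPM in advanced CDAHFD livers, against 96.4 to 111 CPM in CDAHFD controls. Their sums were lower in every advanced library than in every control. These 2 markers are Themis and Ptprc, and Ptprc was also counted with the macrophage markers. The macrophage sum was 29.6 to 40.7 CPM in FPC controls, so most of the lymphocyte sum there came from peaks near Themis. The 3 of 5 macrophage markers with peaks overlapped between advanced and control libraries on both diets, and the 5 endothelial markers overlapped on the FPC diet and were lower on the CDAHFD, at 102 to 122 CPM in advanced livers, against 131 to 162 CPM in controls. No peak was assigned to the stellate markers Des, Lrat and Pdgfrb, the macrophage markers Clec4f and Cd68 or the lymphocyte markers Cd3e, Cd79a and Cd2. The part that other cells play in the results below was not tested. In bulk nuclei, fewer nuclei of a type and less open chromatin per nucleus cannot be told apart.

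The first-intron peaks lay in 5089 host genes, and for 93.9% of them the host was also the gene with the nearest transcription start. The median distance to that start was 4819 bp, with a middle range of 1128 to 15458 bp and extremes of 114 and 487511 bp. A single first-intron peak was found in 2637 genes, and 643 genes had 5 or more. CpG islands held 1616 of the peaks (13.2%), SINE repeats 847, LTR repeats 534 and LINE repeats 307. Since 872 first-intron peaks overlap another peak, they are not fully independent.

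Sequence was at hand only for windows around gene starts, from the RefSeq promoter table of GRCm38.p6, which is the same assembly as mm10. Among the 4446 peaks that lie wholly inside such a window, 48 are first-intron peaks. The window can belong to another gene than the host, as for Ssh1, 9530026P05Rik and Nim1k below. The peaks of a single chromosome were left out of the ranking. Below are the 3 of the other first-intron peaks with the largest opening and the 2 with the largest closing in advanced livers of both diets. They are shown as the ranked first-intron peaks with the largest changes whose letters were at hand. Each is the plus strand from the given start to the given end, 201 bases, and capitals mark every match to the 13 motifs searched on both strands.
Ssh1, chr5:113989694-113989894: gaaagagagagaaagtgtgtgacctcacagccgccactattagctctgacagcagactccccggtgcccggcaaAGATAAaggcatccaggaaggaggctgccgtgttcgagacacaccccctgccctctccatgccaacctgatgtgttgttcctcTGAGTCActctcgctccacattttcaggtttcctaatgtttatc
9530026P05Rik, chr6:92943487-92943687: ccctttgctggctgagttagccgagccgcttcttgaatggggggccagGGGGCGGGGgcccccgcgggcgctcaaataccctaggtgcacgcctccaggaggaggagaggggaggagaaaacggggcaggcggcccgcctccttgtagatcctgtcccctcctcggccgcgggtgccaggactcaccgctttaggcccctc
Cidec, chr6:113434770-113434970: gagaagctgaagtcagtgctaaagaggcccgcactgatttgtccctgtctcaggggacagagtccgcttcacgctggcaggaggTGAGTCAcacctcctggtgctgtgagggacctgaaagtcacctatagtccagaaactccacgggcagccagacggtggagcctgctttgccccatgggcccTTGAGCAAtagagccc
Nim1k, chr13:119755211-119755411: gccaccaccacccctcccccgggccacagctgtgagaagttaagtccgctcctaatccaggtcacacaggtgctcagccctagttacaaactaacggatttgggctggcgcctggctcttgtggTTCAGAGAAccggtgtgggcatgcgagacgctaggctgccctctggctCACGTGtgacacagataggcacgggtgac
Akap7, chr10:25297090-25297290: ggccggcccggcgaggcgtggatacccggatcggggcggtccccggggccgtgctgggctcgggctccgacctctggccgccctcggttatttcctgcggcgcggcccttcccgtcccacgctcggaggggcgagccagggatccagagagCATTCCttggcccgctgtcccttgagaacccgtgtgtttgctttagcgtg
In the Ssh1 peak the capitals are a GATA match, AGATAA, at bases 75 to 80 and an AP-1 match, TGANTCA, at bases 158 to 164. The Cidec peak has an AP-1 match at bases 85 to 91 and a CEBP match, TTGCNNAA, on the minus strand at bases 186 to 193. A KLF and SP match, GGGGCGGGG, stands at bases 49 to 57 of the 9530026P05Rik peak. Of the closed ones, the Nim1k peak holds a STAT match, TTCNNNGAA, at bases 125 to 133 and an E-box, CACGTG, at bases 173 to 178, and the Akap7 peak a TEAD match, GGAATG on the minus strand, at bases 152 to 157. Among all 4446 such peaks of any class, AP-1 matches were found in 3.06%, GATA in 2.63%, CEBP in 6.16%, KLF and SP in 24.0%, STAT in 4.59%, the E-box in 8.79% and TEAD in 6.97%. Most of the 4446 are of other classes. Of the 48 first-intron peaks, these 5 included, AP-1 was found in 6, GATA in 3, CEBP in 3 and KLF and SP in 8. STAT was found in 4 of the 48, the E-box in 6 and TEAD in 5. The other 6 motifs searched had no match in these 5 peaks: HNF4A as CAAAGTCCA (in 0.562% of the 4446), FOXA as TGTTTAC (1.66%), ETS and ELF as CGGAAG (27.3%), NRF2 as TGACNNNGC (11.9%), p53 as CATGTC (3.67%) and the palindromic NFI motif (in 0). Of the 48 first-intron peaks, ETS and ELF was found in 2, p53 in 3, FOXA in 1, NRF2 in 1 and HNF4A and NFI in 0. A match is only a run of letters and does not show that a factor binds there.

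Their levels moved as follows. Ssh1, which encodes a phosphatase that activates the actin-severing protein cofilin, had 9.44, 15.7 and 10.5 CPM in advanced FPC livers, against 1.94, 1.06, 1.34 and 0.506 CPM in FPC controls. On the CDAHFD the same peak had 14.7, 16.4 and 15.2 CPM in advanced livers, against 1.69, 1.94, 0.950 and 0.679 CPM in controls. The advanced and control libraries did not overlap on either diet. Cidec, which encodes a lipid droplet protein that helps droplets to fuse, had 28.5, 26.6 and 28.2 CPM in advanced FPC livers, against 13.3, 11.4, 11.3 and 11.1 CPM in FPC controls, and 36.8, 40.4 and 33.1 CPM in advanced CDAHFD livers, against 11.6, 13.8, 9.27 and 8.83 CPM in CDAHFD controls. Here too every advanced library was above every control library of its diet. Log2 fold changes, ± SE, were 3.25 ± 0.29 and 3.53 ± 0.25 for Ssh1 on the FPC diet and the CDAHFD, and 1.24 ± 0.13 and 1.76 ± 0.11 for Cidec, with adjusted p of 8.91e-09 or less by edgeR's quasi-likelihood test. The closed Akap7 peak, in the gene of an anchoring protein for protein kinase A, had 20.2, 19.9 and 24.3 CPM in advanced FPC livers, against 33.4, 33.9, 32.6 and 28.8 CPM in FPC controls, a log2 change of -0.58 ± 0.11 (adjusted p = 4.09e-05). On the CDAHFD its log2 change was -0.64 ± 0.10 (adjusted p = 4.16e-06). The 9530026P05Rik peak opened by 2.91 ± 0.37 and 2.33 ± 0.37 (adjusted p = 3.56e-07 and 5.75e-06). Nim1k, a kinase gene, changed by -0.79 ± 0.26 and -1.13 ± 0.26 (adjusted p = 0.0108 and 0.000688). These 5 were picked by the size of their change, so the tests support nothing beyond these peaks.

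First introns held a slightly smaller share of all counts the further the disease had gone. The share was 14.3% ± 0.135 in FPC controls (SD, n = 4), 13.9% ± 0.0473 in mild FPC livers (n = 4) and 13.6% ± 0.0762 in advanced FPC livers (n = 3). The libraries of these 3 groups did not overlap. On the CDAHFD it was 14.3% ± 0.143 in controls, 14.1% ± 0.143 in mild livers and 13.9% ± 0.188 in advanced livers, where mild libraries overlapped with both neighbours. Promoter peaks took 40.5% ± 0.519 of the counts in advanced FPC livers, against 35.9% ± 0.707 in FPC controls. Later introns and intergenic peaks also held less, with 16.6% and 24.0% in advanced FPC livers, against 18.6% and 25.5% in FPC controls. On the CDAHFD they held 17.2% and 24.3% in advanced livers, against 18.6% and 25.6% in controls. A smaller share is thus not particular to first introns. Shares of 1 library sum to a whole, so a larger promoter share leaves less for introns.

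**Figure D1:**
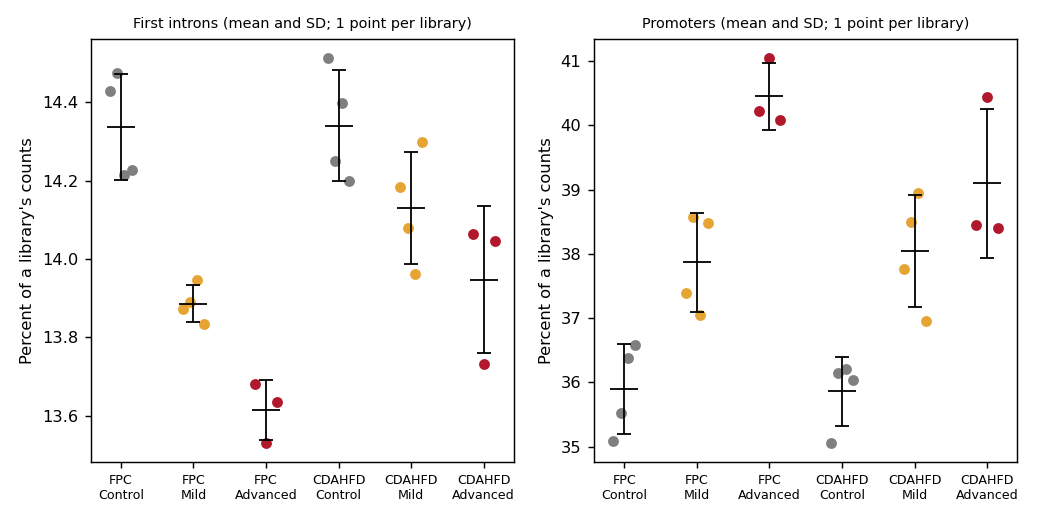
Percent of each library's counts in first-intron peaks (left) and in promoter peaks (right), 1 point per library, with the group mean as a bar and its SD as whiskers. The first-intron share of advanced FPC livers averages 13.6%, against 14.3% in FPC controls, while the promoter share goes the other way.

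With advanced livers set against controls, more first-intron peaks closed than opened on either diet. On the FPC diet 2725 first-intron peaks were higher and 3627 lower in advanced livers at an adjusted p under 0.05 (52.0% called, against 55.6% of all peaks). On the CDAHFD 2974 were higher and 3599 lower (53.8% called, against 55.5% of all peaks). The share called is thus near that of all peaks, and the balance of directions differs: among first-intron peaks 22.3% were higher and 29.7% lower on the FPC diet, while among promoter peaks it was 42.6% and 10.5%, and among later-intron peaks 21.4% and 36.7%. First introns therefore lay between promoters and later introns in this balance, which was described and not tested. The median log2 change of first-intron peaks was -0.11 on the FPC diet and -0.09 on the CDAHFD, beside -0.02 and -0.03 over all peaks. Among large changes openings outnumbered closings. Of called first-intron peaks, 1350 opened and 1082 closed by more than 2-fold on the FPC diet, and 1493 opened and 973 closed by that much on the CDAHFD. Of all peaks 21.0% passed that bar on the FPC diet (11.4% higher and 9.67% lower) and 21.4% on the CDAHFD (12.1% and 9.35%). Every advanced library lay above every control at 2699 first-intron peaks and below at 3419 on the FPC diet (22.1% and 28.0%, beside 26.8% and 26.2% of all peaks), and at 2873 and 3425 on the CDAHFD (23.5% and 28.0%, beside 26.0% and 27.3%).

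Within first introns the direction went with the distance to the start and with what the annotation says of the sequence. Up to 1 kb from the nearest start 25.1% of 2815 peaks were higher and 18.2% lower in advanced FPC livers. From 1 to 5 kb it was 20.4% and 31.9%, and beyond 50 kb 20.8% and 36.4% of 756 peaks. The share that closed was thus higher far from the start than near it, while the share that opened was highest within 1 kb on the FPC diet and from 5 to 20 kb on the CDAHFD (25.5%, beside 23.6% within 1 kb). Peaks in CpG islands opened more often than they closed, with 483 of 1616 higher and 149 lower on the FPC diet and 432 and 166 on the CDAHFD. Within 1 kb of a start, 28.3% of the CpG island peaks were higher and 9.09% lower on the FPC diet, while of the 1429 other peaks there 22% were higher and 27.1% lower. The surplus of openings near the start thus lay in CpG islands, while the other peaks there closed more often than they opened. First-intron peaks in repeats closed most often: 40.3% of those in LTR elements, 38.1% in LINE and 34.6% in SINE elements were lower on the FPC diet, against 16.5%, 19.2% and 15.2% that were higher. On the CDAHFD 38.2% of the LTR peaks were lower and 21.7% higher. The number of introns of the transcript made less difference: 20.3% of peaks in genes with 1 intron and 23.3% in genes with 20 or more were higher on the FPC diet. Later introns showed a like slope with distance, with 28.6% lower at 1 to 5 kb and 41.3% lower beyond 50 kb. So did all peaks on the FPC diet, with 38.9% higher and 12.1% lower up to 1 kb. From 1 to 5 kb it was 23.7% and 29.5% of all peaks, and beyond 50 kb 19.9% and 41.4%. The slope is thus not particular to first introns. Shares by CpG island and repeat were taken for first-intron peaks only. These shares are descriptions and were not tested.

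**Figure D2:**
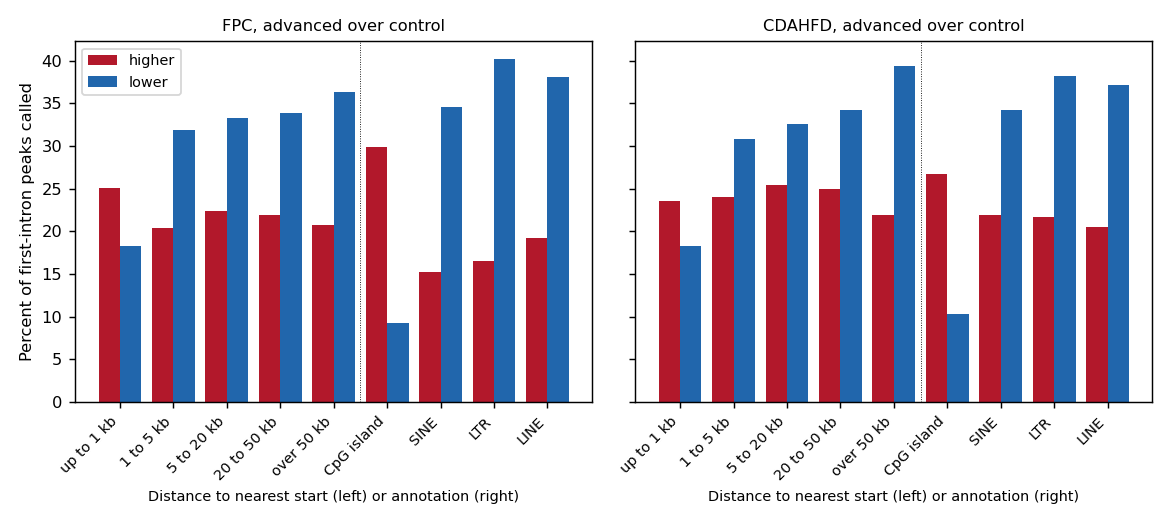
Percent of first-intron peaks called higher (red) or lower (blue) in advanced livers than in controls on the FPC diet (left) and the CDAHFD (right), by distance to the nearest transcription start and by annotated feature. CpG islands are the feature with the largest surplus of higher calls, 29.9% higher against 9.22% lower on the FPC diet.

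Only first-intron peaks above the median level of all peaks, and in the gene with the nearest start, were ranked. Those that opened most on both diets lie in genes of varied function, from actin-binding proteins to a transcription factor and a fatty acid elongase. They were picked by size of change, so their values describe and support nothing further. Tagln2 encodes an actin-binding protein, and its peak lies 896 bp from the start at chr1:172501042-172501242. It had 36.4, 37.9 and 36.8 CPM in advanced FPC livers, against 0.242, 1.06, 2.35 and 1.52 CPM in FPC controls. In advanced CDAHFD livers it had 29.5, 40.4 and 32.2 CPM, against 0.847, 0.748, 1.43 and 1.02 CPM in CDAHFD controls. This stretch was close to shut in every control and wide open in every advanced library, with log2 changes of 4.71 ± 0.27 (adjusted p = 5.00e-13) and 5.01 ± 0.25 (adjusted p = 1.55e-14). The Ccdc120 peak (chrX:7740194-7740394), 1030 bp from the start of a gene for a coiled-coil protein, had 28.0, 31.1 and 24.5 CPM in advanced FPC livers, against 0.969, 1.33, 2.02 and 1.01 CPM in FPC controls. On the CDAHFD its values were 29.0, 29.4 and 27.3 CPM in advanced livers, against 1.98, 1.20, 0.832 and 0.340 CPM in controls. Again the groups stood far apart, at log2 changes of 4.30 ± 0.25 and 4.67 ± 0.23 (adjusted p = 7.69e-13 and 1.12e-14).

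Mafk encodes a small Maf protein, which pairs with NRF2 and related factors on DNA. Its first-intron peak at chr5:139796988-139797188 had 31.7, 40.9 and 33.9 CPM in advanced FPC livers, against 1.94, 4.51, 2.35 and 3.54 CPM in FPC controls, and 32.6, 36.0 and 34.0 CPM in advanced CDAHFD livers, against 2.54, 1.79, 2.38 and 2.89 CPM in CDAHFD controls. Its log2 changes were 3.56 ± 0.18 and 3.83 ± 0.16 (adjusted p = 8.38e-14 and 1.26e-15), and no control library came near an advanced one. Fto encodes an RNA demethylase, and its peak sits 82306 bp from the start, the farthest of the 9 opened peaks named here. There the advanced FPC livers had 16.5, 27.6 and 24.5 CPM, against 0.969, 1.33, 1.18 and 1.26 CPM in FPC controls, and the advanced CDAHFD livers 33.1, 36.4 and 32.9 CPM, against 2.26, 1.65, 1.54 and 1.70 CPM in CDAHFD controls. The lowest advanced library was still far above the highest control. Ski encodes a repressor of TGF-beta signalling through SMAD proteins. The Ski peak had 25.3, 29.6 and 26.4 CPM in advanced FPC livers, against 2.18, 1.33, 2.52 and 1.01 CPM in FPC controls. No advanced library came near a control. On the FPC diet and the CDAHFD its log2 changes were 3.87 ± 0.23 and 4.03 ± 0.22. The other 4 named here are Tanc1 and Dlg2, which encode scaffold proteins of cell contacts, Cdc42ep1, an effector of the GTPase CDC42, and Elovl7, a fatty acid elongase. Their log2 changes on the FPC diet were 4.08 ± 0.22, 3.52 ± 0.25, 3.50 ± 0.24 and 3.59 ± 0.27.

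Among first-intron peaks above the same median level, those that closed most also lie in genes of varied function. Prex1 encodes an exchange factor that activates the GTPase Rac. Its peak at chr2:166676957-166677157 had 2.70, 0.855 and 0.318 CPM in advanced FPC livers, against 19.4, 25.2, 23.2 and 19.7 CPM in FPC controls, and 1.28, 1.34 and 1.28 CPM in advanced CDAHFD livers, against 18.6, 13.5, 18.8 and 14.3 CPM in CDAHFD controls. The stretch was open in all controls and nearly shut in all advanced libraries, with log2 changes of -4.11 ± 0.30 (adjusted p = 4.61e-11) and -3.64 ± 0.29 (adjusted p = 7.92e-11). Advanced FPC library 1 was the highest of its group, and without it the FPC change was -5.14. The same library weakened the FPC changes of Slc7a15, of an amino acid transporter family, and of Tmem189, which makes the vinyl ether bond of plasmalogens. These were -3.47 ± 0.31 and -2.61 ± 0.29, and without it they grew to -4.33 and -3.35 and stayed called.

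Ntm and Opcml encode related adhesion proteins anchored to the cell surface. The Ntm peak had 5.23, 4.56 and 4.77 CPM in advanced FPC livers, against 34.2, 37.6, 30.6 and 35.4 CPM in FPC controls, and 3.10, 3.0 and 2.85 CPM in advanced CDAHFD livers, against 35.9, 30.8, 28.8 and 39.7 CPM in CDAHFD controls. Its log2 changes were -2.82 ± 0.17 and -3.48 ± 0.18 (adjusted p = 1.65e-12 and 1.89e-14). The Opcml peak, 460234 bp from the start, changed by -2.70 ± 0.23 and -3.05 ± 0.23. Camk2b encodes a subunit of a calcium- and calmodulin-dependent kinase, and Trhde an enzyme that degrades thyrotropin-releasing hormone. The Camk2b peak had 3.37, 3.28 and 6.36 CPM in advanced FPC livers, against 31.7, 31.0, 28.6 and 27.8 CPM in FPC controls, and 1.07, 2.0 and 1.56 CPM in advanced CDAHFD livers, against 27.1, 25.1, 25.7 and 30.9 CPM in CDAHFD controls. No advanced library overlapped with a control. The Trhde peak changed by -2.73 ± 0.20 and -3.50 ± 0.23. Spry4, an inhibitor of signalling from receptor tyrosine kinases to MAP kinase, had 8.09, 6.27 and 10.2 CPM in advanced FPC livers, against 32.0, 28.1, 33.6 and 25.8 CPM in FPC controls, and changed by -1.88 ± 0.22 and -1.94 ± 0.21. The remaining members of the closed 10 are Gm12718 and Rfc1, the large subunit of the complex that loads the replication clamp, at -2.51 ± 0.21 and -2.20 ± 0.22 on the FPC diet.

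**Figure D3:**
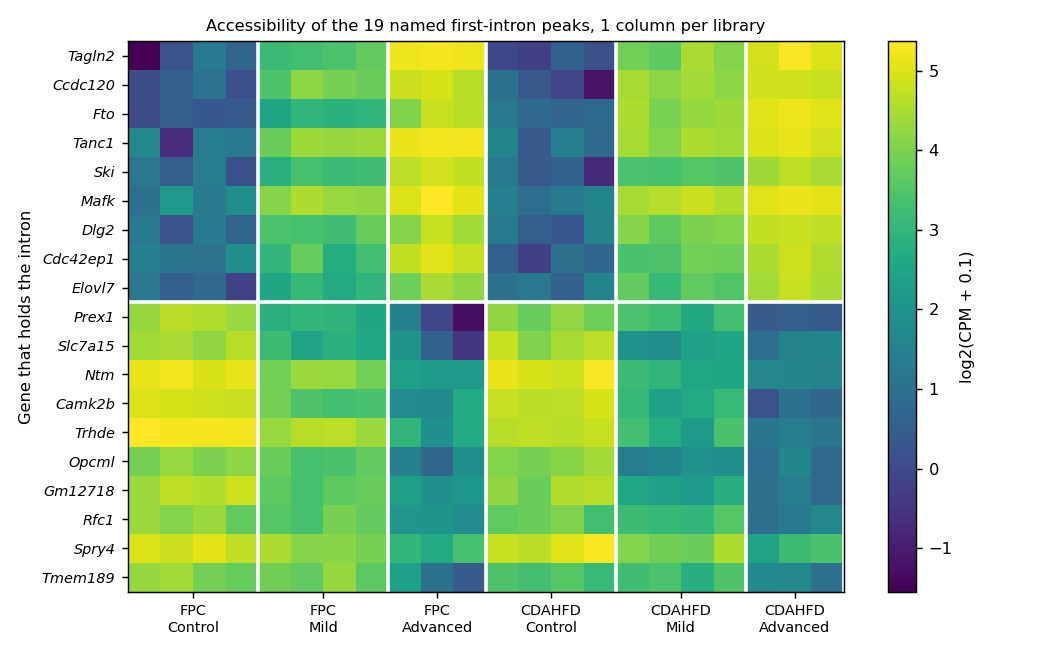
Accessibility of the 19 named first-intron peaks, as log2(CPM + 0.1), with 1 column per library in the order control, mild and advanced within each diet. Their changes shared by the diets are among the largest of first-intron peaks above the median level of all peaks. In the upper 9 rows, which opened, the advanced libraries are bright and the controls dark, in the lower 10 the reverse, and the mean of the mild libraries lies between in every row on both diets.

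The diets opened and closed largely the same first-intron peaks. In advanced livers 2195 were higher on both, which is 80.6% of those higher on the FPC diet and 73.8% of those higher on the CDAHFD, and 2676 were lower on both, 73.8% and 74.4% of the lower ones. The like shares over all peaks were 75.2% and 77.5% of the higher ones on the FPC diet and the CDAHFD. Of the lower ones they were 76.8% and 74.6% in the same order. The sharing is thus not particular to first introns. Of every peak, called or not, 20.7% were higher and 21.5% lower on both. The diets share no library. Across the 12215 first-intron peaks the log2 changes of the diets had a Pearson correlation of 0.91, beside 0.91 over all peaks. Peaks of 1 gene share their source, so this is a description over peaks and not over mice.

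**Figure D4:**
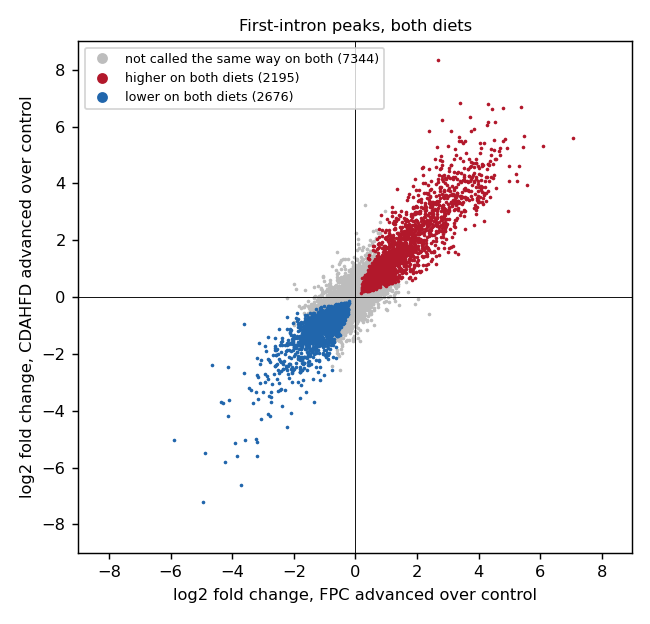
Log2 fold change of each first-intron peak in advanced over control livers on the FPC diet (x axis) and the CDAHFD (y axis). Peaks called higher on both diets (2195) are red, peaks called lower on both (2676) blue and the rest grey, and most points follow the diagonal.

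In advanced livers against controls 17 first-intron peaks were called in opposite directions by the diets (0.139%, beside 0.243% of all peaks). They are named because they are few, after their values were seen. Of these, 2 neighbouring LTR peaks of Aida, which encodes an axis formation protein, had log2 changes of -1.04 and -1.04 on the FPC diet but 0.71 and 0.75 on the CDAHFD. Akt2 encodes a kinase that carries the insulin signal. Its peak, 484 bp from the start, had 12.1, 12.1 and 10.5 CPM in advanced FPC livers, against 6.30, 5.30, 6.05 and 5.56 CPM in FPC controls, and 4.17, 5.01 and 5.12 CPM in advanced CDAHFD livers, against 7.34, 6.58, 5.94 and 5.43 CPM in CDAHFD controls. It opened on the FPC diet (0.99 ± 0.16, adjusted p = 1.42e-05), and the difference between the diets was 1.41 ± 0.24 (FPC minus CDAHFD, adjusted p = 0.00225). The lower level on the CDAHFD was called (-0.42 ± 0.17, adjusted p = 0.0360), but the lowest control lay close to the highest advanced library and the call was lost by DESeq2 (adjusted p = 0.104), with cyclic loess scaling (adjusted p = 0.162), with the compared groups alone in the fit (adjusted p = 0.109) and on leaving out advanced library 1 or 2 or control 1 or 2 of the CDAHFD (adjusted p between 0.0564 and 0.187). The other opposite peaks lie in Arap1, Sh3bp2, Abcc3, Sord, Sel1l, Aldh4a1, Reep3, Sp4 and Gm12602, lower on the FPC diet, and in Lad1, Pbx4, Pnpla1, Appl1 and Ccdc12, higher on it. The difference between the diets was not called for Sh3bp2, Reep3 and Gm12602 (adjusted p = 0.0762, 0.0662 and 0.0685), and the CDAHFD calls of Abcc3, Sh3bp2 and Sord lay near the threshold (adjusted p = 0.0498, 0.0474 and 0.0467).

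Mild livers already showed much of this. With mild livers against controls, 1478 first-intron peaks were higher and 1746 lower on the FPC diet (26.4%, against 28.8% of all peaks), and 2268 and 2359 on the CDAHFD (37.9%, against 40.7%). Mild and advanced livers of 1 diet share their controls, so the advanced calls of one diet were read in the mild livers of the other, which share no library with them. Of the first-intron peaks opened in advanced FPC livers, 1688 were higher and 21 lower in mild CDAHFD livers than in CDAHFD controls, and of those closed 1715 were lower and 43 higher. The 1688 and 1715 are 61.9% of the opened and 47.3% of the closed ones. The like shares over all peaks were 58.1% and 52.7%. Of every peak, called or not, 20.7% were higher and 20.0% lower in mild CDAHFD livers. In the other direction, 1170 of the peaks opened in advanced CDAHFD livers were higher and 28 lower in mild FPC livers. Of the closed ones 1246 were lower and 27 higher. The 1170 and 1246 are 39.3% of the opened and 34.6% of the closed ones, beside 43.9% and 35.3% over all peaks. Of every peak, called or not, 15.1% were higher and 13.6% lower in mild FPC livers.

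Over all peaks 10.5% were higher and 8.55% lower in mild livers of both diets. Of the first-intron peaks above the median level with the largest openings shared by mild livers, Ccdc120, Tanc1, Tagln2 and Mafk are also named for advanced livers. Tanc1 had 14.1, 20.5, 19.3 and 20.3 CPM in mild FPC livers, against 3.15, 0.530, 2.52 and 2.28 CPM in FPC controls, and 22.1, 16.8, 23.0 and 21.0 CPM in mild CDAHFD livers, against 2.97, 1.20, 2.61 and 1.70 CPM in CDAHFD controls. No mild library overlapped with a control, and the log2 changes were 3.08 ± 0.24 and 3.25 ± 0.20 (adjusted p = 1.16e-09 and 4.03e-12). The largest mild closings above that level were in Slc7a15, Camk2b, Gcnt2, an enzyme that branches sugar chains, and Pard3b, a protein of cell polarity. Gcnt2 had 7.43, 6.82, 6.37 and 6.0 CPM in mild FPC livers, against 17.0, 17.5, 16.1 and 17.7 CPM in FPC controls, with no overlap and a log2 change of -1.36 ± 0.20 (adjusted p = 2.05e-05). Its mild and advanced livers were not called apart on either diet (log2 difference -0.42 ± 0.24, adjusted p = 0.196, on the FPC diet and -0.51 ± 0.23, adjusted p = 0.124, on the CDAHFD).

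Advanced livers differed from mild ones at 1599 first-intron peaks that were higher and 1608 that were lower on the FPC diet (26.3%, against 29.3% of all peaks). On the CDAHFD 1148 were higher and 851 lower (16.4%, against 16.5%). With cyclic loess scaling the CDAHFD split turned to 738 higher and 858 lower, so no direction is drawn from it. Over all peaks it was 9.28% higher and 7.26% lower on the CDAHFD. The counts also lean on single libraries: 1853 calls without advanced FPC library 2, and 1327 and 1190 without advanced CDAHFD libraries 1 and 2. Some first-intron peaks changed at the advanced stage and little before it. Tmem189 had 5.23, 1.99 and 1.27 CPM in advanced FPC livers, against 14.5, 12.9, 19.1 and 12.3 CPM in mild ones, while mild livers and controls were not called apart (log2 difference -0.21 ± 0.22, adjusted p = 0.482). Cers6, a ceramide synthase, had 14.8, 16 and 16.5 CPM in advanced FPC livers, against 5.62, 5.21, 5.16 and 6.0 CPM in mild ones, and again the mild change was not called (-0.05 ± 0.29, adjusted p = 0.916). On the CDAHFD the advanced livers had 22.2, 30.4 and 29.9 CPM at Cers6, against 10.2, 13.6, 12.6 and 11.4 CPM in mild livers (1.19 ± 0.21, adjusted p = 0.000333). Tshz2, a zinc finger protein, moved in steps instead, with 2.42, 1.59, 4.71 and 3.04 CPM in FPC controls, 10.4, 11.1, 13.1 and 11.7 CPM in mild and 31.2, 39.0 and 37.9 CPM in advanced FPC livers. Over all peaks 7.16% were higher and 5.25% lower in advanced than in mild livers of both diets. C77080 and Ski also opened from the mild to the advanced stage on both diets, and Prex1, Trhde and Rfc1 closed, with log2 differences between advanced and mild FPC livers of 1.58 ± 0.20, 1.60 ± 0.17, -2.48 ± 0.34, -1.94 ± 0.20 and -1.72 ± 0.23. Without advanced FPC library 1 this difference was -3.51 for Prex1 and, for Tmem189, -3.13 in place of -2.40 ± 0.29.

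Few first-intron peaks were called as differing between the diets. The change from control to advanced livers differed between the FPC diet and the CDAHFD at 55 peaks that were more positive and 84 that were more negative on the FPC diet (1.14%, against 1.60% of all peaks, made up of 0.690% more positive and 0.910% more negative). For mild livers it was 166 and 198 (2.98%, against 3.47% of all peaks, made up of 1.84% more positive and 1.63% more negative). The advanced count of 139 fell to 69 without advanced FPC library 3, 87 without FPC control 3, 85 and 82 without advanced CDAHFD libraries 1 and 3, and 89 without CDAHFD control 3. The mild count of 364 fell to 239 without mild FPC library 3, to 239 without mild CDAHFD library 3 and to 179 without FPC control 3.

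Fmnl2 encodes a formin, which nucleates actin filaments. Its peak had 11.1, 16.8 and 14.0 CPM in advanced FPC livers, against 10.2, 7.95, 7.56 and 7.59 CPM in FPC controls, and 20.4, 21.7 and 19.9 CPM in advanced CDAHFD livers, against 4.94, 2.09, 4.28 and 4.07 CPM in CDAHFD controls. It opened on both diets and more on the CDAHFD, with a difference of the log2 changes of -1.65 ± 0.28 (FPC minus CDAHFD, adjusted p = 0.00225). Il6ra encodes the interleukin-6 receptor. Its peak 16482 bp from the start had 6.74, 7.98 and 9.71 CPM in advanced FPC livers, against 7.51, 10.1, 9.25 and 6.58 CPM in FPC controls, and 14.7, 19.5 and 19.3 CPM in advanced CDAHFD livers, against 8.76, 4.94, 6.77 and 5.77 CPM in CDAHFD controls. The groups overlap on the FPC diet and stand apart on the CDAHFD, a difference of -1.47 ± 0.27 (adjusted p = 0.00505). Spint2, an inhibitor of serine proteases, and Tmem45b differed the same way, by -1.10 ± 0.23 and -1.10 ± 0.24. In the other direction, Acacb encodes the acetyl-CoA carboxylase that restrains fatty acid oxidation. Its peak had 12.5, 9.40 and 8.27 CPM in advanced FPC livers, against 12.4, 10.3, 7.06 and 9.11 CPM in FPC controls, and 4.70, 5.34 and 6.83 CPM in advanced CDAHFD livers, against 9.60, 14.1, 18.3 and 11.0 CPM in CDAHFD controls. It was lower on the CDAHFD (adjusted p = 2.23e-05) and not called on the FPC diet (adjusted p = 0.819). The difference of 1.32 ± 0.31 passed the test (adjusted p = 0.0280) but not on leaving out advanced FPC library 1, FPC control 3, advanced CDAHFD library 1 or 2, or CDAHFD control 3 (adjusted p up to 0.0863). Fam198a differed by 1.46 ± 0.31 and Pard3b, at its LTR peak, by 1.76 ± 0.36 (adjusted p = 0.0145 and 0.0127). The Pard3b call was lost without advanced FPC library 3 or advanced CDAHFD library 1 (adjusted p = 0.0505 and 0.0557), and that of Tmem45b without advanced CDAHFD library 3 (adjusted p = 0.0555). The Camk2b peak closed on both diets and further on the CDAHFD (1.40 ± 0.35, adjusted p = 0.0403), a call lost on leaving out advanced library 3 or control 3 or 4 of the FPC diet, or advanced library 1 or 3 or control 3 or 4 of the CDAHFD (adjusted p up to 0.180).

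Most genes with 10 or more first-intron peaks had peaks that moved in opposite directions, while few genes with 2 to 4 did. Of the 142 genes with 10 or more, 97 had at least 1 higher and 1 lower peak in advanced FPC livers against controls and 114 in advanced CDAHFD livers against controls. Among the 501 genes with 5 to 9 it was 194 and 239. Among the 1809 genes with 2 to 4 it was 159 (8.79%) and 203 (11.2%). A gene with more peaks has more chances to show both directions, so these counts cannot be compared between the classes. Rora encodes a nuclear receptor of the circadian clock and holds the most, 37 peaks, out to 246 kb from the nearest start. On the FPC diet 10 of them were higher and 7 lower, with log2 changes between -1.11 and 2.96, and on the CDAHFD 6 and 9. The first intron of Cmip, an adaptor protein, held 29 peaks, of which 13 were higher and 1 lower on the FPC diet and 13 and 6 on the CDAHFD. Shroom3, an actin-binding protein of the apical cell border, had 10 of 21 higher and 4 lower on the FPC diet, with changes up to 3.91. Clmn had 11 of 20 higher and 0 lower on the CDAHFD. Ptprj, a receptor tyrosine phosphatase, and Iqsec1, an exchange factor for ARF GTPases, were mixed, with 3 higher and 6 lower of 22, and 4 and 5 of 20, on the FPC diet.

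Among first-intron peaks of genes that define the hepatocyte, more closed than opened. Of 88 peaks in genes of hepatocyte transcription factors, 11 were higher and 35 lower in advanced FPC livers, and 13 and 28 in advanced CDAHFD livers, with a median log2 change of -0.22 and -0.22. That is 12.5% higher and 39.8% lower on the FPC diet, and 14.8% and 31.8% on the CDAHFD. Over all peaks 27.6% were higher and 28.0% lower on the FPC diet, and 26.7% and 28.8% on the CDAHFD. Among all first-intron peaks it was 22.3% and 29.7%, and 24.3% and 29.5%. The share lower on the CDAHFD was thus near that of first-intron peaks. Foxa1, a pioneer factor that opens closed chromatin, had 13.5, 10.3 and 11.5 CPM in advanced FPC livers, against 36.6, 26.0, 34.6 and 24.3 CPM in FPC controls (-1.39 ± 0.14, adjusted p = 6.60e-09). The groups did not overlap. On the CDAHFD the Foxa1 peak changed by -0.62 ± 0.13 (adjusted p = 0.000158). Nr1h4, the bile acid receptor FXR, went the other way at a peak 6394 bp from its start, with 12.5, 18.5 and 12.7 CPM in advanced FPC livers, against 1.94, 3.18, 1.68 and 2.28 CPM in FPC controls, and 15.4, 19.7 and 15.6 CPM in advanced CDAHFD livers, against 1.69, 1.79, 0.950 and 2.04 CPM in CDAHFD controls. It opened by 2.72 ± 0.24 and 3.40 ± 0.22 on the log2 scale (adjusted p = 7.31e-10 and 2.00e-12). Nfia, of the nuclear factor I family, opened by 0.71 ± 0.10 and 0.52 ± 0.09.

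In genes of secreted proteins and core metabolism 0 of 23 first-intron peaks were higher and 14 lower in advanced FPC livers (0% and 60.9%). In advanced CDAHFD livers it was 1 and 12 (4.35% and 52.2%). Their median log2 change was -0.49 and -0.34. Among all first-intron peaks 22.3% were higher and 29.7% lower on the FPC diet, and 24.3% and 29.5% on the CDAHFD. For all peaks it was 27.6% and 28.0%, and 26.7% and 28.8%. Fbp1, an enzyme of glucose synthesis, had 5.73, 7.26 and 3.18 CPM in advanced FPC livers, against 14.1, 15.1, 13.6 and 13.7 CPM in FPC controls, with no overlap (-1.37 ± 0.21, adjusted p = 6.00e-06). Arg1, which releases urea in the urea cycle, changed by -1.27 ± 0.22 and -1.03 ± 0.21. Serpinc1, which encodes antithrombin, closed on the FPC diet (-0.94 ± 0.20, adjusted p = 0.000237) and was not called on the CDAHFD (-0.26 ± 0.17, adjusted p = 0.206). The bile acid list had 3 of 37 higher and 21 lower on the FPC diet (8.11% and 56.8%), and 7 and 18 on the CDAHFD (18.9% and 48.6%). Cyp27a1 and Cyp7b1, hydroxylases of the alternative bile acid pathway, and Akr1d1, the reductase that shapes the steroid ring, are its leading members. Cyp7b1 had 3.20, 2.14 and 3.82 CPM in advanced FPC livers, against 9.69, 11.7, 16.5 and 9.61 CPM in FPC controls, and 2.99, 2.67 and 2.85 CPM in advanced CDAHFD livers, against 13.3, 7.78, 7.72 and 10.2 CPM in CDAHFD controls. Every advanced library was below every control, and the log2 changes were -1.99 ± 0.24 and -1.76 ± 0.24. Cyp27a1 changed by -2.36 ± 0.32 and -2.53 ± 0.36, and Akr1d1 by -1.69 ± 0.22 and -1.22 ± 0.20 (adjusted p of 1.29e-05 or less for these 3 genes).

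In growth hormone and insulin signalling more peaks closed than opened. Of 65 first-intron peaks 4 were higher and 25 lower on the FPC diet (6.15% and 38.5%). On the CDAHFD it was 5 and 28 (7.69% and 43.1%), and the medians were -0.33 and -0.35. Among all first-intron peaks 22.3% were higher and 29.7% lower on the FPC diet, and 24.3% and 29.5% on the CDAHFD. For all peaks it was 27.6% and 28.0%, and 26.7% and 28.8%. Irs1, which links the insulin receptor to its kinases, had 2.19, 1.57 and 2.07 CPM in advanced FPC livers, against 9.21, 6.89, 10.8 and 9.11 CPM in FPC controls, and 2.99, 1.67 and 2.56 CPM in advanced CDAHFD livers, against 6.92, 8.38, 7.84 and 8.83 CPM in CDAHFD controls. No advanced library reached a control, and Irs1 changed by -2.23 ± 0.24 and -1.68 ± 0.22, and Grb14, an inhibitor of the insulin receptor, by -1.11 ± 0.20 and -1.01 ± 0.19. In genes of lipid and sterol synthesis 10 of 60 peaks were higher and 19 lower on the FPC diet and 9 and 25 on the CDAHFD. That is 16.7% higher and 31.7% lower on the FPC diet and 15% and 41.7% on the CDAHFD, with medians of -0.05 and -0.26, and on the FPC diet the share lower was near the 28.0% of all peaks. Insig1, a brake on sterol synthesis, opened on the FPC diet (1.07 ± 0.15, adjusted p = 9.34e-07) and lay at the edge of the threshold on the CDAHFD (0.28 ± 0.12, adjusted p = 0.0502), where DESeq2 called it (adjusted p = 0.0193). Dgat2, the last enzyme of triglyceride synthesis, changed by -0.59 ± 0.10 and -0.63 ± 0.10.

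Among first-intron peaks of AP-1 and of YAP and TEAD genes, more opened than closed. In the AP-1 and immediate early list 12 of 20 peaks were higher and 3 lower on the FPC diet (60% and 15%). On the CDAHFD it was 13 and 2 (65% and 10%), and the medians were 0.63 and 0.56. Among all first-intron peaks 22.3% were higher and 29.7% lower on the FPC diet, and 24.3% and 29.5% on the CDAHFD. For all peaks it was 27.6% and 28.0%, and 26.7% and 28.8%. Klf6, an early response zinc finger factor, had 8.94, 8.69 and 6.36 CPM in advanced FPC livers, against 0.969, 0.795, 2.02 and 0.253 CPM in FPC controls, and 9.94, 9.35 and 8.96 CPM in advanced CDAHFD livers, against 0.989, 2.39, 1.19 and 0.849 CPM in CDAHFD controls. Every advanced library was above every control. The log2 changes were 2.83 ± 0.31 (3.53 without FPC control 3) and 2.78 ± 0.26. Fosb, a subunit of AP-1, opened by 0.70 ± 0.11 and 0.75 ± 0.10 in its CpG island. Of the YAP and TEAD list 8 of 15 peaks were higher and 2 lower on the FPC diet (53.3% and 13.3%). On the CDAHFD it was 8 and 1 (53.3% and 6.67%), and the medians were 0.83 and 0.91. Myof, a membrane repair protein, had 13.3, 17.7 and 15.1 CPM in advanced FPC livers, against 0.969, 1.59, 0.168 and 1.01 CPM in FPC controls. Ajuba, which restrains the Hippo kinases, had 19.9, 27.6 and 25.1 CPM in advanced FPC livers, against 1.70, 3.98, 3.36 and 4.30 CPM in FPC controls. Myof, Ajuba and Ptpn14, a phosphatase that holds YAP back, stood apart from controls on both diets, with log2 changes on the CDAHFD of 3.01 ± 0.23 for Ajuba and 3.45 ± 0.35 for Ptpn14. Myof had 8.33, 11.7 and 11.7 CPM in advanced CDAHFD livers, against 0.565, 0.598, 0 and 0.509 CPM in CDAHFD controls. Ptpn14 changed by 3.58 ± 0.33 on the FPC diet and by 4.19 without FPC control 3.

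In genes of the cytoskeleton and of fibrosis more peaks were also higher than lower. The actin cytoskeleton list had 25 of 66 first-intron peaks higher and 9 lower on the FPC diet and 27 and 17 on the CDAHFD. That is 37.9% higher and 13.6% lower on the FPC diet and 40.9% and 25.8% on the CDAHFD, and the medians were 0.21 and 0.17. For all peaks it was 27.6% and 28.0% on the FPC diet and 26.7% and 28.8% on the CDAHFD. Among all first-intron peaks it was 22.3% and 29.7%, and 24.3% and 29.5%. Myh9, the heavy chain of non-muscle myosin, had 11.8, 12.4 and 13.4 CPM in advanced FPC livers, against 2.67, 4.24, 3.70 and 3.29 CPM in FPC controls (1.84 ± 0.17, adjusted p = 1.18e-09). The TGF-beta and PDGF list had 17 of 42 higher and 10 lower on the FPC diet and 15 and 9 on the CDAHFD. That is 40.5% higher and 23.8% lower on the FPC diet and 35.7% and 21.4% on the CDAHFD, with medians of 0.12 and 0.01. Pdgfb, a growth factor for stellate cells and pericytes, had 9.78, 17.1 and 16.4 CPM in advanced FPC livers, against 1.21, 0.795, 0.504 and 1.52 CPM in FPC controls, and 5.98, 8.68 and 7.40 CPM in advanced CDAHFD livers, against 0.565, 0.299, 0.475 and 1.02 CPM in CDAHFD controls. It stood clear of the controls on both diets (3.89 ± 0.38 and 3.62 ± 0.40). Tgfbr3, a co-receptor for TGF-beta, closed instead, with log2 changes of -1.42 ± 0.13 and -1.84 ± 0.12. Bicc1, an RNA-binding protein found in bile ducts, was close to 0 in controls: its peak had 6.24, 12.2 and 11.9 CPM in advanced FPC livers, against 0, 0, 0 and 0.253 CPM in FPC controls, and 5.56, 5.84 and 6.83 CPM in advanced CDAHFD livers, against 0, 0.299, 0.119 and 0 CPM in CDAHFD controls. The control libraries held 1.00 and 3.50 counts in all, so no fold is given, and with cyclic loess scaling the CDAHFD call was lost (adjusted p = 0.128). The summed cholangiocyte markers, given above, were also higher in advanced livers, and their part in the Bicc1 result was not tested. The biliary list to which Bicc1 belongs had 3 of 12 higher and 3 lower on the FPC diet (25% and 25%). On the CDAHFD the list had 4 and 1 (33.3% and 8.33%). Of its keratin genes, Krt18 opened by 1.92 ± 0.22 and 1.40 ± 0.19 and Krt8 changed by -0.55 ± 0.14 and -0.97 ± 0.13.

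In the remaining lists openings and closings were closer in number. Among all first-intron peaks 22.3% were higher and 29.7% lower on the FPC diet, and 24.3% and 29.5% on the CDAHFD. For all peaks it was 27.6% and 28.0%, and 26.7% and 28.8%. On the FPC diet the Notch and Wnt, inflammation and stress lists below lay near these shares. Clock genes had 16 of 66 first-intron peaks higher and 13 lower on the FPC diet (24.2% and 19.7%). On the CDAHFD it was 14 and 14 (21.2% each), and 37 of the 66 peaks lie in Rora. Nr1d1, which encodes the clock repressor REV-ERB alpha, had 51.3, 48.3 and 39.5 CPM in advanced FPC livers, against 23.3, 27.3, 29.6 and 24.3 CPM in FPC controls (0.82 ± 0.10, adjusted p = 3.33e-07), and Npas2, a partner of BMAL1, opened by 2.91 ± 0.36 and 3.60 ± 0.39. The labels do not give the hour at which livers were taken. Notch and Wnt genes had 13 of 57 higher and 19 lower on the FPC diet (22.8% and 33.3%) and 15 and 14 on the CDAHFD (26.3% and 24.6%). Lgr4, a receptor for R-spondins, changed by -1.02 ± 0.13 and -0.70 ± 0.12, while Znrf3, a ligase that removes Wnt receptors, opened by 1.81 ± 0.28 and 2.51 ± 0.26 and Maml3, a co-activator of Notch, by 1.75 ± 0.24 and 1.67 ± 0.21. Inflammation genes had 10 of 34 higher and 11 lower on the FPC diet (29.4% and 32.4%) and 11 and 6 on the CDAHFD (32.4% and 17.6%). Icam1, an adhesion molecule for leukocytes, had 7.92, 8.97 and 6.68 CPM in advanced FPC livers, against 0.485, 1.33, 1.34 and 2.02 CPM in FPC controls, and opened by 2.59 ± 0.30 and 2.77 ± 0.27. Relb, an NF-kB subunit, opened by 0.76 ± 0.11 and 0.56 ± 0.11. Stress genes had 7 of 26 higher and 7 lower on the FPC diet (26.9% each) and 10 and 6 on the CDAHFD (38.5% and 23.1%). Cdkn1a, the cell cycle inhibitor p21, had 19.6, 20.8 and 18.5 CPM in advanced FPC livers, against 4.36, 5.04, 6.56 and 6.83 CPM in FPC controls, with no overlap, and opened by 1.77 ± 0.18 and 1.70 ± 0.16. Nfe2l2, which encodes NRF2, opened by 2.33 ± 0.42 and 2.63 ± 0.31 at a SINE peak, but with cyclic loess scaling the change was 0.47 and 0.25 and was not called (adjusted p = 0.380 and 0.537).

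First introns of genes listed as markers of other cell types held few peaks. No first-intron peak lay in a gene of the macrophage list, and the stellate list had 3, all in Tagln, 2 of them lower on either diet. The Tagln peak 3298 bp from the start changed by -0.60 ± 0.18 on the FPC diet (adjusted p = 0.00741, and 0.0632 without advanced FPC library 3). The lymphocyte list had 5 peaks, of which the 4 in Cd4 were lower and the 1 in Themis was higher on either diet. The Cd4 peak 6047 bp from the start had 4.72, 5.13 and 7.32 CPM in advanced FPC livers, against 12.6, 17.2, 18.3 and 17.7 CPM in FPC controls, so it was lower in advanced livers (-1.53 ± 0.21, adjusted p = 6.81e-07). The summed lymphocyte markers, given above and made up of Themis and Ptprc only, were also lower. Their part in the Cd4 result was not tested. The Themis first-intron peak was higher, unlike that sum, with 8.77, 8.83 and 8.43 CPM in advanced FPC livers, against 4.85, 3.71, 4.20 and 3.29 CPM in FPC controls. The endothelial gene Kdr changed by -1.13 ± 0.20 and -1.02 ± 0.19. The 10 peaks of the cholangiocyte list lie in only 2 of its 12 genes, so they say little of the list as a whole. Of these peaks 0 were higher and 1 lower on the FPC diet and 1 and 1 on the CDAHFD. The Ehf peak 12862 bp from the start was not called on either diet (-0.29 ± 0.19, adjusted p = 0.189, and -0.26 ± 0.18, adjusted p = 0.228). The lower call on the FPC diet was in Onecut1, whose libraries scatter widely within groups: 6.58, 11.4 and 5.41 CPM in advanced FPC livers, against 31.5, 8.22, 28.6 and 6.58 CPM in FPC controls. That call (-1.28 ± 0.52, adjusted p = 0.0367) was lost with cyclic loess scaling (adjusted p = 0.0622), by DESeq2 and on leaving out FPC control 1 or 3 (adjusted p = 0.0849, 0.149 and 0.141) and on leaving out advanced FPC library 1 or 3 (adjusted p = 0.0997 and 0.127).

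Set against the promoter of the same gene, the first intron more often fell behind than got ahead. Counts were summed per gene over its first-intron peaks and over its promoter peaks, and the test asked in 4069 genes whether the change of the first intron differed from that of the promoter in the same libraries. In advanced FPC livers against controls the first intron changed more positively in 470 genes and more negatively in 1358 (44.9% of the genes), with a median difference of -0.21. In advanced CDAHFD livers against controls it was 718 and 1197 genes (47.1%), with a median of -0.10. Both diets gave the same call for 385 genes in which the first intron was ahead and 923 in which it was behind. Against the later introns of the same gene, in 2218 genes, the first intron was ahead in 670 and behind in 477 on the FPC diet (51.7%), and ahead in 684 and behind in 573 on the CDAHFD (56.7%).

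**Figure D5:**
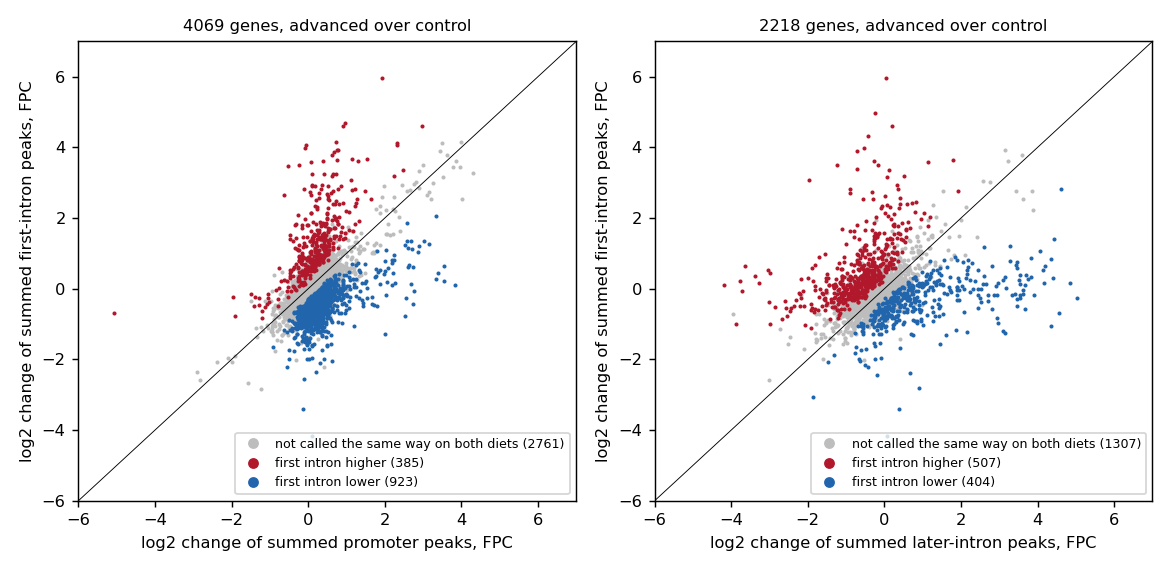
Log2 change in advanced over control FPC livers of the summed first-intron peaks of a gene (y axis) against that of its summed promoter peaks (left, x axis) or later-intron peaks (right, x axis), 1 point per gene, with the line of equal change. Genes in which the first intron was called behind on both diets are blue (923 against promoters) and those in which it was ahead are red (385).

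Each gene named next was picked by the size of its difference on both diets. Prex1 has an intron and a promoter that parted. Its 2 first-intron peaks summed to 3.03, 1.28 and 0.636 CPM in advanced FPC livers, against 29.1, 35.3, 32.8 and 28.8 CPM in FPC controls, while its 2 promoter peaks summed to 109, 108 and 98.6 CPM in advanced FPC livers, against 90.6, 102, 93.8 and 103 CPM in FPC controls. The intron was nearly empty in the advanced libraries while the promoter groups overlapped, a difference of -4.39 ± 0.26 (adjusted p = 4.60e-15), or -5.08 without advanced FPC library 1. On the CDAHFD the difference was -3.12 ± 0.26 (adjusted p = 4.62e-12). Adamts1, a secreted protease, is a case of a promoter that gained far more than the first intron. Its 4 first-intron peaks summed to 102, 105 and 102 CPM in advanced FPC livers, against 80.9, 91.5, 88.6 and 93.6 CPM in FPC controls, and its promoter peak had 36.6, 37.0 and 41.7 CPM in advanced FPC livers, against 2.42, 3.71, 3.70 and 3.04 CPM in FPC controls. The difference was -3.33 ± 0.16 on the FPC diet and -3.46 ± 0.15 on the CDAHFD (adjusted p = 1.99e-17 and 2.44e-19). In Creb5, a factor that binds cyclic AMP response elements, the intron was lower and the promoter higher in every advanced FPC library: its first-intron peak had 4.21, 3.99 and 4.77 CPM in advanced FPC livers, against 12.1, 10.3, 9.92 and 10.4 CPM in FPC controls, and its promoter peaks summed to 33.9, 41.9 and 35.3 CPM in advanced FPC livers, against 7.51, 9.01, 8.40 and 11.4 CPM in FPC controls. Arhgef10l, a guanine nucleotide exchange factor, had a promoter at 10.8, 22.8 and 14.6 CPM in advanced FPC livers, against 1.70, 1.06, 0.336 and 1.01 CPM in FPC controls, while its 7 first-intron peaks summed to 96.4, 106 and 104 CPM in advanced FPC livers, against 108, 89.9, 95.5 and 82.7 CPM in FPC controls. The sums of its first intron overlapped between the groups, and the difference was -3.93 ± 0.31 on the FPC diet.

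Among genes whose first intron was ahead of the promoter, Sgo2a, a shugoshin that guards sister chromatids, had 8.26, 10.3 and 9.55 CPM in its first-intron peak in advanced FPC livers, against 0.485, 0.530, 0.336 and 0.506 CPM in FPC controls. Its promoter peak had 27.3, 26.8 and 26.7 CPM in advanced FPC livers, against 28.6, 26.0, 30.9 and 26.8 CPM in FPC controls, so the intron was higher in every advanced library beside a promoter whose groups overlap (adjusted p of the difference = 7.32e-12). The first-intron peak of Eif4e3, which encodes a cap-binding protein, had 2.70, 6.55 and 3.50 CPM in advanced FPC livers, against 0, 0.530, 0.168 and 0 CPM in FPC controls, and it was ahead of both the promoter and the later introns (adjusted p = 9.87e-08 and 7.43e-08). The first-intron peak of Gm4876 had 3.37, 8.26 and 7.32 CPM in advanced FPC livers, against 0.242, 0.795, 0.336 and 0.506 CPM in FPC controls (adjusted p of the difference from the promoter = 7.29e-08). Since the controls of these 3 genes held almost no counts there, no size of the difference is given. In Hsd3b5, a hydroxysteroid dehydrogenase, the promoter was nearly empty in advanced livers, with 0.506, 0.285 and 0.318 CPM in advanced FPC livers, against 12.6, 11.7, 21.9 and 16.2 CPM in FPC controls, while the first-intron peak had 5.73, 3.13 and 3.82 CPM in advanced FPC livers, against 9.69, 4.24, 9.41 and 4.30 CPM in FPC controls. Hsd3b5 belongs to a family of near-identical genes, so its counts are uncertain.

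The first and the later introns of a gene also parted ways. In Tram2, a protein of the translocon, the 6 first-intron peaks summed to 61.4, 53.6 and 65.7 CPM in advanced FPC livers, against 72.0, 75.3, 74.0 and 66.0 CPM in FPC controls, whereas its later-intron peak had 27.8, 34.5 and 33.9 CPM in advanced FPC livers, against 0.969, 0.530, 1.01 and 1.01 CPM in FPC controls. The later intron was far above the controls in every advanced library and the first intron was not, a difference of -5.39 ± 0.26 on the FPC diet and -5.32 ± 0.23 on the CDAHFD (adjusted p = 4.16e-17 and 1.10e-18). Gxylt2, a xylosyltransferase, and Pag1, an adaptor of membrane rafts, also had a higher later intron, beside a first intron that was lower in every advanced FPC library. The Gxylt2 first-intron peak had 2.87, 4.56 and 3.18 CPM in advanced FPC livers, against 6.54, 7.95, 7.56 and 7.84 CPM in FPC controls. Pag1 summed to 43.7, 32.6 and 46.9 CPM over 4 first-intron peaks in advanced FPC livers, against 58.1, 72.6, 64.9 and 69.1 CPM in FPC controls. C230014O12Rik was behind its later intron as well, on both diets, though that later intron held almost no counts in controls. Ahead of their later introns were Bicc1, Eml1, which encodes a microtubule-binding protein, and Ank1, an ankyrin of the membrane skeleton. The Ank1 first-intron peak had 3.03, 5.98 and 3.82 CPM in advanced FPC livers, against 0.485, 0.265, 0.672 and 0.253 CPM in FPC controls, and its later-intron peak 3.20, 1.99 and 4.14 CPM in advanced FPC livers, against 14.5, 11.7, 11.4 and 12.6 CPM in FPC controls. The directions crossed in every library. The 2 first-intron peaks of Eml1 summed to 17.5, 34.8 and 19.3 CPM in advanced FPC livers, against 0.969, 2.12, 1.18 and 1.77 CPM in FPC controls, and its later-intron peak had 3.71, 3.85 and 5.09 CPM in advanced FPC livers, against 7.27, 7.69, 6.05 and 6.83 CPM in FPC controls. Here too the first intron was higher and the later one lower in every advanced FPC library, a difference of 4.69 ± 0.45 on the FPC diet and 4.98 ± 0.44 on the CDAHFD.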

How the data were processed

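ATAC-seq was run on tagged hepatocyte nuclei bound to beads, from 22 mice. The authors deposited a table of expected counts per peak, before normalization. Per the submitters' processing notes, which give names and no roles, the tools were BWA (version 0.7.5a-r405), SAMtools, HOMER and DESeq2, and the build was mm10. The deposited counts come in steps of 0.5 and were rounded to whole numbers here. The deposited annotation placed each peak, and the authors' distance to the nearest start, in bp, was read as a score. Peaks were tested with edgeR 4.0.16 in R 4.3.3 (TMM factors 0.984 to 1.02, filterByExpr, which kept all 68827, quasi-likelihood tests over 6 groups, with the fit on all 22 libraries and no covariate). P-values were Benjamini-Hochberg adjusted over all peaks, and a call is an adjusted p under 0.05. The SE of a log2 change is its size divided by the square root of F, which can be too small where a group holds almost no counts. Within a gene, first-intron and promoter or later-intron sums were compared in the same libraries with library as a block. The totals of 3785066 to 9328963 counts limit precision at low peaks. Each library is 1 mouse, so p-values measure the spread between mice. The labels give no batch.

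Peaks were named if called the same way on both diets with no overlap, above the median level of all peaks, 1 per gene, ranked by the smaller of the diets' changes, 10 each way for advanced and 4 each way for mild livers and between stages. Diet differences, pairs within a gene (4 each way), the 6 genes with most peaks, and up to 3 peaks per list with the smallest p on the FPC diet were also named. Some peaks that these rules pick are not reported here. Members and lists were chosen with earlier results of these data known. On simulated data the peak test of advanced FPC livers against controls, over 68827 peaks, recovered 11.9%, 71.6% and 100% of peaks changed by 1.5, 2 and 4 fold, with 5 false calls. The test within a gene, over 4069 genes, recovered 32.8%, 86.6% and 98.5%, with 5 false calls. In each simulation only 67, 67 and 66 members were changed at these folds, and all had the same dispersion, 0.0114. In the data 55.6% of all peaks were called in this comparison, so these rates do not describe the reported calls. Alternatives were DESeq2 1.42.0, other scalings, filters and fits, limma 3.58.1 for pairs, and leaving out each library. Motifs were searched in promoter windows of RefSeq, since no genome was used here.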

Additional observations from a re-analysis of the deposited data

Results flagged for a closer look

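Of 312 groups of 4 libraries tested for the named first-intron peaks, 13 (4.17%) had 1 library far from the other 3, and chance flags about 1 in 20 groups. The widest gap was in Onecut1, where CDAHFD control 2 had 28.4 CPM and the other 3 controls 6.42 to 7.47 CPM. FPC controls 1 and 3 and that library are the high ones for this peak. Among controls, Fmnl2 had 10.2 CPM in FPC control 1 (others 7.56 to 7.95 CPM), Fbp1 13.8 CPM in CDAHFD control 3 (others 11.5 to 11.9 CPM), Arg1 5.43 CPM in CDAHFD control 4 (others 10.2 to 10.6 CPM) and Nfe2l2 1.33 CPM in FPC control 2 (others 0.485 to 0.506 CPM). Bicc1, at 0.253 CPM in FPC control 4 and 0 in the other 3, and Myof, at 0 in CDAHFD control 3 and 0.509 to 0.598 CPM in the others, rest on a few counts. Among mild livers, FPC library 3 was low for Npas2 (1.20 CPM, others 1.79 to 1.83 CPM) and Tgfbr3 (19.3 CPM, others 23.0 to 23.7 CPM), and FPC library 1 for Pard3b at 11271 bp from the start (8.03 CPM, others 10.7 to 11.2 CPM). In mild CDAHFD livers, library 4 was low for Fosb (25.1 CPM, others 28.1 to 28.2 CPM) and high for Lgr4 (26.2 CPM, others 21.7 to 22.3 CPM), and library 3 high for Nfe2l2 (4.37 CPM, others 2.98 to 3.13 CPM).

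Some named first-intron peaks changed by a different amount on each diet, by edgeR's test of the difference of the log2 changes (FPC minus CDAHFD, ± SE, adjusted over all peaks). For the advanced change, the difference was 1.76 ± 0.36 (adjusted p = 0.0127) and 1.74 ± 0.38 (adjusted p = 0.0180) at the Pard3b peaks 11395 and 11271 bp from the start, 1.46 ± 0.31 (adjusted p = 0.0145) at Fam198a, 1.41 ± 0.24 (adjusted p = 0.00225) at Akt2, 1.40 ± 0.35 (adjusted p = 0.0403) at Camk2b, 1.32 ± 0.31 (adjusted p = 0.0280) at Acacb and 0.79 ± 0.19 (adjusted p = 0.0320) at Insig1. It was -1.65 ± 0.28 (adjusted p = 0.00225) at Fmnl2, -1.47 ± 0.27 (adjusted p = 0.00505) at Il6ra, -1.10 ± 0.23 (adjusted p = 0.0145) at Spint2, -1.10 ± 0.24 (adjusted p = 0.0180) at Tmem45b and -0.77 ± 0.19 (adjusted p = 0.0351) at Foxa1, all more negative on the FPC diet.

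For the mild change, 3 peaks that closed on both diets in advanced livers differed, with mild CDAHFD livers further below their controls: Opcml by 1.93 ± 0.26 (adjusted p = 9.42e-05), Ntm by 1.27 ± 0.19 (adjusted p = 0.000428) and Trhde by 0.88 ± 0.23 (adjusted p = 0.0280). Their mild changes were -0.54 ± 0.17, -0.98 ± 0.13 and -0.79 ± 0.15 on the FPC diet and -2.47 ± 0.19, -2.25 ± 0.14 and -1.67 ± 0.17 on the CDAHFD. The mild change also differed by 2.08 ± 0.32 (adjusted p = 0.000497) and 1.97 ± 0.31 (adjusted p = 0.000614) at the Pard3b peaks 11271 and 11395 bp from the start, by 0.99 ± 0.22 (adjusted p = 0.0115) at Akt2, by -2.33 ± 0.65 (adjusted p = 0.0425) at Npas2 and by -1.57 ± 0.27 (adjusted p = 0.00181) at Fmnl2. It differed by -1.13 ± 0.23 (adjusted p = 0.00691) at Tmem45b, -1.02 ± 0.22 (adjusted p = 0.00923) at Spint2 and -0.92 ± 0.26 (adjusted p = 0.0419) at Il6ra.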

How the results depend on the processing

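Of 88 counts of calls under other tests, scalings, filters, fits or definitions of the peaks, 87 stayed within 1.5 times the reported ones. The exception was the count of first-intron peaks whose advanced change differed between the diets, 62 against 139 with only the compared groups in the fit. Some of the 88 could hardly move. The filter removed no peak, so the repeats without it are the same fit. Peaks over 1 kb from a start, or without overlap, were recounted among the same calls. By construction fewer peaks hold a smaller share of the counts. With peaks over 1 kb from the nearest start only, the share was 11.0% in FPC controls, 10.5% in mild and 10.2% in advanced FPC livers, and 11.1%, 10.8% and 10.6% in the same order on the CDAHFD. With peaks that overlap no other it was 13.2%, 12.8% and 12.5% on the FPC diet and 13.2%, 13.0% and 12.8% on the CDAHFD. Leaving out 1 library at a time kept 91 of 102 counts within 1.5 times. Calls ranged from 5372 to 6089 for advanced FPC livers and from 5687 to 6409 for advanced CDAHFD livers against controls, from 2463 to 2922 and from 3946 to 4581 for mild livers against controls, and from 1853 to 3066 and from 1190 to 1927 for advanced against mild livers of the FPC diet and the CDAHFD. The diet difference ranged from 69 to 185 calls for the advanced and from 179 to 526 for the mild change. Within genes the calls ranged from 1422 to 1776 and from 1646 to 1830 against promoters, and from 957 to 1082 and from 1116 to 1243 against later introns, on the FPC diet and the CDAHFD. Of the 196 values of named peaks and genes, repeats under other settings kept direction and side of the threshold in 1355 of 1372 cases. The 1372 include the repeats without the filter, which could not differ. Leaving out 1 library kept them in 1414 of 1444. The CDAHFD change of Onecut1, -0.53 and not called, ranged from -0.75 to 0.30, and turned positive without CDAHFD control 2. Bicc1, Eif4e3 and C230014O12Rik, with almost no counts in 1 group, moved by over 1.5 times with single control libraries, and Ank1 moved from 5.23 to 4.64 without advanced FPC library 2. The cause was not tested. No paired analysis was possible because no mouse or number links libraries across groups. Depth limits the peaks with almost no counts in a group.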
